A study of Mus musculus with 9 samples.

Results

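Leukemia inhibitory factor (LIF) and its relatives signal through a small family of shared receptors, and 10 genes of that system are described here in cells of the newborn mouse brain ventricular zone: the ligands Lif, Cntf and Ctf1, the receptors Lifr, Il6st, Cntfr and Osmr, the kinase Jak1, the transcription factor Stat3 and the feedback inhibitor Socs3. The genes were chosen by function around Lifr, which earlier results on these arrays had placed among the genes that differ between knockout and wild type. Of the 10 genes, 9 were measured by a probe set of their own, among 19938 genes in all. Cntf shared its 1 probe set with Zfp91 and another gene, so no value of it is given.

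In this system LIF binds the receptor LIFR, which then pairs with the signal-transducing subunit encoded by Il6st. Cardiotrophin 1, the product of Ctf1, uses the same pair, ciliary neurotrophic factor adds the anchored receptor CNTFR to it, and oncostatin M uses OSMR with the Il6st product. The assembled receptors carry Janus kinases such as JAK1, which phosphorylate STAT3, and STAT3 turns on Socs3, whose product shuts the receptor down. In the perinatal forebrain this pathway is known for supporting neural stem cells and for driving progenitors to make astrocytes.

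The study compared 3 genotypes of C57BL/Ka mice on 9 Affymetrix Mouse Gene ST 1.0 arrays, 3 per genotype. WT arrays hold RNA of Prdm16+/+ cells, HET arrays Prdm16LacZ/+ cells and KO arrays Prdm16LacZ/LacZ cells. Prdm16 encodes a zinc finger regulator of transcription, and the labels name a LacZ allele of it and no tissue-specific driver. The ventricular zone lines the brain ventricles and holds radial glia and other progenitors; the cells were taken from newborn pups and were neither cultured nor treated. Nothing states that arrays of a genotype came from separate animals, so the p-values speak to the variation among these arrays alone, part or all of which may be technical.

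Prdm16 itself read 7.62, 7.57 and 7.23 in WT, 6.995, 7.34 and 6.998 in HET and 5.69, 6.41 and 6.17 in KO, in log2 expression units, so that all KO arrays lay below all others. Whether its probes lie in the disrupted part of the gene was not examined. The arrays had medians of 5.80 to 5.92 and correlated at r of 0.988 to 0.996 across probe sets. Of 10 radial glia markers, the brightest were Fabp7, a lipid carrier, at 11.7 to 12.4 and Vim, a filament protein, at 10.3 to 10.9. Slc1a3, a glutamate transporter, read 10.2 to 10.5, and Hes1, the dimmest of the 10, 5.12 to 5.52. In WT the mean level of the 10 was 8.43 to 8.52, and that of 6 neuron genes 9.64 to 9.66. Such levels do not give the share of each cell type in the samples. The mean log2 level of 7 astrocyte genes was 7.26 to 7.47 in WT, 7.11 to 7.48 in HET and 6.80 to 6.92 in KO, and the mean of 5 ependymal genes was 6.14 to 6.17, 5.91 to 6.15 and 5.41 to 5.78. The ependymal genes were uneven: KO differed from WT by -1.18 for Enkur, -0.96 for Rsph4a, -0.53 for Ak7, -0.25 for Dnah9 and -0.11 for Foxj1. The astrocyte genes, given further below, were uneven as well, so neither mean stands for every gene of its list. In bulk samples such as these, fewer cells of a type and less RNA per cell cannot be told apart. The part of these cell types in the values below was not tested.

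The promoter windows of Lifr are shown because it is the member with the largest difference between genotypes. RefSeq (GRCm38.p6) gives 2 windows for it, both inside the annotated span of the gene on the plus strand of chromosome 15, and the 250 bases before each start are printed 5′ to 3′ with every CG pair in capitals. The last sequence is the stretch of the Socs3 window, on the minus strand of chromosome 11, that holds a STAT-type motif, which is in capitals.
Lifr chr15:7129322-7129571: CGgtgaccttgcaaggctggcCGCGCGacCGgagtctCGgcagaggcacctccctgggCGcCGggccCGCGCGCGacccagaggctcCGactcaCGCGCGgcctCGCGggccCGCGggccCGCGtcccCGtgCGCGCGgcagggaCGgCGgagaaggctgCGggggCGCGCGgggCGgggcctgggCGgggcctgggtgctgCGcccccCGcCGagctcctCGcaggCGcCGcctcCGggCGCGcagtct
Lifr chr15:7140292-7140541: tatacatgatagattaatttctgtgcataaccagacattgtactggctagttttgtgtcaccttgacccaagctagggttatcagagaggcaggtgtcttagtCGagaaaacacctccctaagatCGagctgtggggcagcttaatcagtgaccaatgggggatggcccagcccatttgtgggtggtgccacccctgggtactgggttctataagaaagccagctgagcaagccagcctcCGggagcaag
Socs3 chr11:117969502-117969530: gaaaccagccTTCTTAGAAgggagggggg

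The Lifr windows differ in composition. The first held 53 CG pairs in 300 bases and was 81.3% G and C, whereas the second held 4 and was 53.3%; the median over all 32851 windows of that length was 7 CG pairs and 52.7%. The motif searched, TTCNNNGAA, reads the same on both strands and is the core that STAT proteins are known to bind. It occurred in 1 of the 16 windows of the 10 genes, 154 bases before the Socs3 start, and in 8.3% of all windows. The array value of a gene does not tell which of its starts was used.

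Lifr had the widest difference between genotypes. It read 6.58, 6.29 and 6.26 in WT, 6.60, 6.56 and 6.43 in HET and 7.48, 6.99 and 7.46 in KO. Every KO array lay above every WT and HET array, while the WT and HET arrays overlapped. The KO mean was 7.31 ± 0.28 (SD, n = 3), against 6.38 ± 0.18 in WT and 6.53 ± 0.08 in HET. That is a log2 difference of 0.93 (SE 0.14) between KO and WT, or 1.91-fold, with a 95% interval of 1.54-fold to 2.36-fold. Within KO, replicate 2 was the lowest array.

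**Figure D1:**
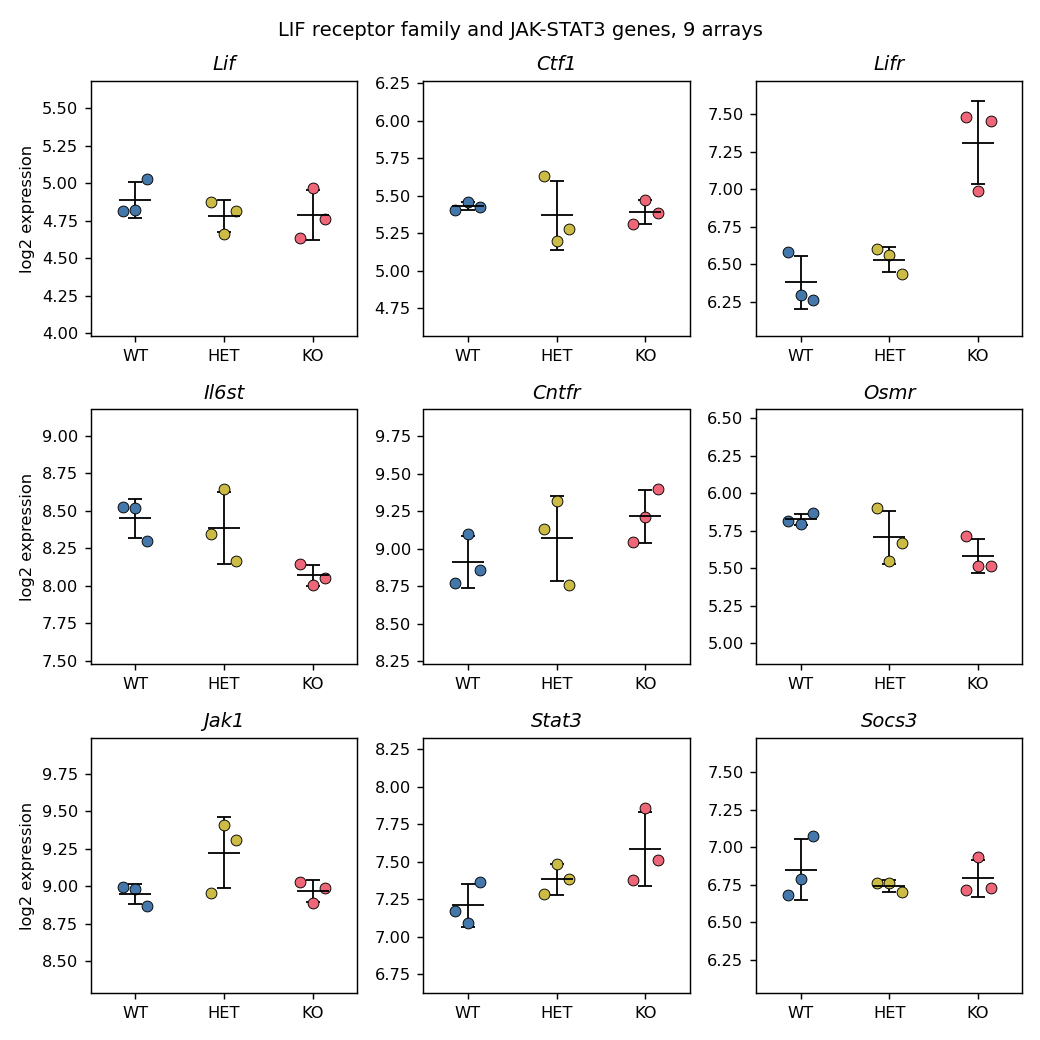
Log2 expression of the 9 measured genes in each of 9 arrays, by genotype (WT, HET, KO); points are arrays, horizontal bars are means and error bars are SD (n = 3), and all panels span the same range of log2 units. Lifr lies at 6.99 to 7.48 in KO, above all other arrays, and Il6st at 8.01 to 8.15 in KO, below them.

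The receptor subunits did not all lie on the same side. Il6st, the subunit shared by the LIF, CNTF and oncostatin M receptors, read 8.53, 8.52 and 8.30 in WT, 8.34, 8.64 and 8.16 in HET and 8.15, 8.01 and 8.05 in KO. All KO arrays lay below all WT and HET arrays, though KO replicate 1 lay only just below HET replicate 3. The difference between KO and WT was -0.38 on the log2 scale (SE 0.12), a level lower by a factor of 1.30.

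Osmr, the receptor subunit for oncostatin M, also lay lower in KO. It read 5.81, 5.80 and 5.87 in WT, 5.90, 5.55 and 5.67 in HET and 5.72, 5.52 and 5.52 in KO. The KO arrays lay below all WT arrays but overlapped with HET, and the KO difference from WT was -0.24 (SE 0.10). Cntfr, the anchored receptor for ciliary neurotrophic factor, read 8.77, 9.10 and 8.86 in WT, 9.13, 9.32 and 8.76 in HET and 9.04, 9.21 and 9.40 in KO. Its groups overlapped, with a difference of 0.31 (SE 0.15) between KO and WT.

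Of the ligands, Lif read 4.82, 4.82 and 5.03 in WT, 4.87, 4.66 and 4.82 in HET and 4.64, 4.97 and 4.76 in KO. These values lie close to the lower quartile of the arrays, 4.53 to 4.68. Ctf1, which encodes cardiotrophin 1, read 5.40 to 5.46 in WT, 5.20 to 5.63 in HET and 5.31 to 5.47 in KO. The groups of both genes overlapped, and KO differed from WT by -0.10 (SE 0.11) for Lif and by -0.04 (SE 0.11) for Ctf1.

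Downstream of the receptors, Stat3 lay higher in KO. It read 7.17, 7.09 and 7.37 in WT, 7.28, 7.49 and 7.38 in HET and 7.38, 7.86 and 7.51 in KO. The KO arrays lay above the WT arrays, KO replicate 1 only just above WT replicate 3, and overlapped with HET. The difference between KO and WT was 0.37 (SE 0.13), or 1.30-fold; without KO replicate 2, the highest array, it was 0.24.

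Jak1 and Socs3 did not separate KO from WT. Jak1 read 8.995, 8.98 and 8.87 in WT, 8.96, 9.41 and 9.31 in HET and 9.03, 8.89 and 8.99 in KO, so that HET replicates 2 and 3 were the highest arrays. Socs3, a direct STAT3 target and a common readout of the pathway, read 6.68, 6.79 and 7.08 in WT, 6.76, 6.76 and 6.70 in HET and 6.72, 6.94 and 6.73 in KO. Its difference between KO and WT was -0.06 (SE 0.11), with a 95% interval of 0.82-fold to 1.13-fold. A second, dimmer Socs3 probe set differed by 0.02 (SE 0.09).

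Because the genes were chosen with KO against WT known, that contrast is a description and nothing is read from its counts. In the limma fit over all genes, 1 of the 9 measured members, Lifr, was called in it at a Benjamini-Hochberg adjusted p under 0.05, beside 0.451% of all genes. The groups did not overlap for 4 of 9 (Lifr and Stat3 above WT, Il6st and Osmr below), beside 9.98% of all genes. The median of the 9 differences was -0.04, against 0.01 over all genes. Lifr missed the threshold when an array was left out in 5 cases: WT replicate 2 (adjusted p = 0.11 by limma), WT replicate 3 (0.093), HET replicate 2 (0.051), KO replicate 1 (0.097) and KO replicate 3 (0.098). It also missed it when the HET arrays took no part in the fit (0.13). Its log2 difference lay between 0.84 and 1.09 in every setting run.

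**Figure D2:**
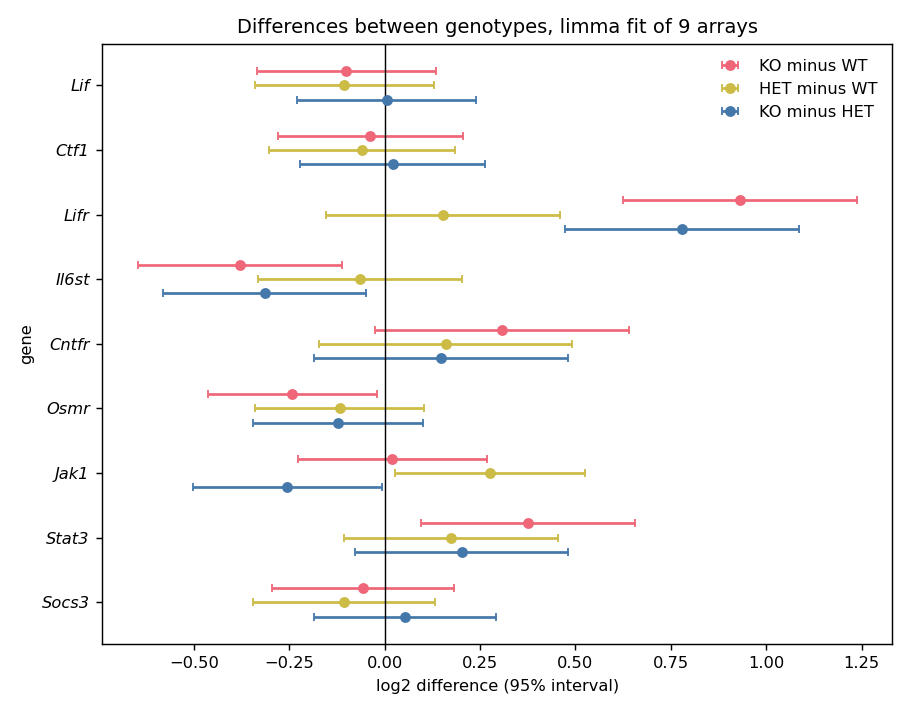
Log2 differences between genotypes for the 9 measured genes (horizontal axis) with 95% intervals from the limma fit of all 9 arrays; colours mark KO minus WT, HET minus WT and KO minus HET. The intervals of Lifr lie above 0 in both contrasts with KO and hold 0 in HET minus WT, and those of Il6st lie below 0 in both contrasts with KO.

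Setting HET against WT asks what the loss of a single allele does to these genes. This contrast shares the WT arrays with the comparison above. Prdm16 itself differed in it by -0.36 (SE 0.18), with overlapping groups. None of the 9 members passed the test, nor did any of all genes (0%), with an adjusted p of 0.99 for each member by limma. At an unadjusted p under 0.05, 1 of 9 members, Jak1, lay higher in HET, beside 4.05% of all genes, with a log2 difference of 0.28 (SE 0.11). The groups overlapped for all 9, where 6.85% of all genes did not overlap. Lifr differed by 0.15 (SE 0.14), with a 95% interval of 0.90-fold to 1.37-fold, so a rise of up to that size could have gone unseen. The HET mean lay between those of WT and KO for 5 members (Lifr, Il6st, Cntfr, Osmr and Stat3) and outside them for the other 4. These 5 also had the largest differences between KO and WT, where a mean in between comes most readily. The share over all genes was not counted, so nothing is read from this count.

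The comparison of KO with HET asks what the loss of the remaining allele adds; it shares the KO arrays, so it is not independent of how the genes were chosen. None of the 9 members passed over all genes, of which 0.206% did. Lifr came nearest, with a log2 difference of 0.78 (SE 0.14), or 1.72-fold, and an adjusted p of 0.081 by limma. It passed without KO replicate 2 (log2 difference 0.94, adjusted p = 0.026 by limma), with array weights (0.90, 0.044) and with quantile normalization (0.76, 0.049). Other settings moved it away from the threshold. The adjusted p by limma was 0.34 without HET replicate 2, 0.34 without KO replicate 3 and 0.32 with only the KO and HET arrays in the fit.

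Il6st differed between KO and HET by -0.32 (SE 0.12) and Jak1 by -0.26 (SE 0.11), with adjusted p of 0.72 and 0.79 by limma. Without HET replicate 2 they lay at -0.19 and -0.17, and without HET replicate 1 Jak1 lay at -0.39. With Lifr these were the 3 members at an unadjusted p under 0.05, a share that 6.16% of all genes reached. The KO and HET arrays did not overlap for Lifr and Il6st, as for 6.54% of all genes. The other 6 members had 95% intervals that held 0, among them Stat3 at 0.20 (SE 0.13) and Socs3 at 0.05 (SE 0.11). Stat3 lay at 0.063 without KO replicate 2 and at 0.088 with array weights.

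The wider pathway was followed in 6 lists of 71 genes, of which 64 were measured. By limma, none of the 64 passed over all genes in any of the 3 contrasts, and in KO against WT 3 were at an unadjusted p under 0.05 (6.15% of all genes were). These 3 were Socs7, a SOCS-box relative of Socs3, Jak2, a kinase related to Jak1, and Gfap, the astrocyte filament gene that STAT3 is known to activate. Socs7 lay at 0.30 (SE 0.09, adjusted p = 0.50 by limma), Jak2 at 0.32 (SE 0.12, 0.72) and Gfap at -0.31 (SE 0.11, 0.61). In KO against WT 6 of the 64 had groups that did not overlap, a share of 9.38%, and the median difference was 0.01, as over all genes. At an unadjusted p under 0.05 in HET against WT were 3 of the 64 (4.69%, where 4.05% of all genes were), and in KO against HET 2 (3.13%, where 6.16% were).

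Other ligands and receptors of the family, such as interleukin 6 and its receptor, were in part dim: 3 of 7 ligands and 3 of 5 receptors lay below the lower quartile of all 9 arrays. Their median differences between KO and WT were -0.05 and 0.02. The ligands with the smallest p were Il11 at -0.06 and Ctf2 at -0.05, and the receptors Il27ra at 0.13 and Lepr at 0.03. None passed, and Il11 and Lepr were among the genes below the lower quartile of all 9 arrays. Among the other JAKs and STATs, 7 genes with a median of 0.00, Stat5a lay at -0.24 (SE 0.14) beside Jak2.

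The negative regulators, among them SOCS proteins, PIAS proteins and phosphatases, numbered 15 with a median of 0.04. Of these, 11 lay higher and 4 lower in KO, where 47.4% of all genes lay lower. Ptpn11, a phosphatase that the receptors recruit, lay at 0.16 (SE 0.08) and did not pass.

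The STAT3-responsive genes, 20 measured, had a median difference of 0.01, with 11 higher and 9 lower in KO. Gfap read 5.07, 4.81 and 5.04 in WT, 4.73, 4.67 and 4.42 in HET and 4.73, 4.73 and 4.52 in KO, so that both HET and KO lay below all WT arrays without passing the test. The HET and KO values lie close to the lower quartile of the arrays, 4.53 to 4.68, and 2 arrays lay below it. The HET difference of Gfap from WT was -0.36 (SE 0.11, adjusted p = 0.99 by limma). Myc, a growth regulator among the same genes, lay at 0.27 (SE 0.15) and did not pass. Serpina3n, an acute-phase protease inhibitor named after its values were seen, lay at -0.60 with an SE of 0.47. Of 10 other cytokine receptors that use JAKs, 7 lay lower in KO, where 47.4% of all genes did, with a median of -0.13. Il13ra1 lay at -0.25 (SE 0.12) and the growth hormone receptor gene Ghr at -0.18 (SE 0.10), and none of the 10 passed.

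**Figure D3:**
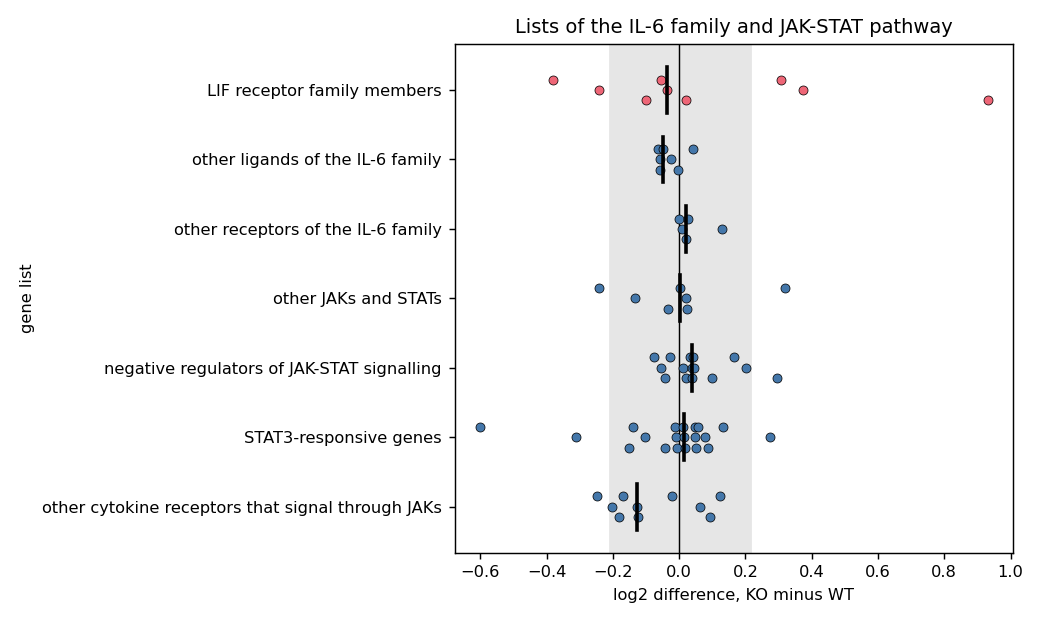
Log2 difference between KO and WT (horizontal axis) for the 9 measured members and for each measured gene of 6 pathway lists; points are genes, thick bars are list medians, and the grey band holds the central 90% of all 19938 genes (-0.21 to 0.22). Lifr at 0.93 lies farthest from 0 among all genes shown.

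Of 7 astrocyte genes, 5 lay lower in KO than in WT, where 47.4% of all genes did, and 1 of these, the water channel gene Aqp4, fell (log2 difference -1.02, SE 0.17, adjusted p = 0.033 by limma). The gap junction gene Gja1 lay at -1.03 (SE 0.21, adjusted p = 0.088 by limma), Slc1a2 at -0.62 (SE 0.12, 0.077) and Aldoc at -0.60 (SE 0.15, 0.22). Gfap, given above, was the other lower one, and Aldh1l1 lay at 0.21 (SE 0.12) and S100b at 0.06 (SE 0.07). The KO and WT groups did not overlap for 6 of the 7, Aldh1l1 above WT among them, beside 9.98% of all genes. The radial glia markers had a median difference of -0.02 over 10 genes, none called, with mean levels of 8.43 to 8.52 in WT and 8.30 to 8.54 in KO. Microglia markers had mean levels of 6.06 to 6.19 in WT and 6.08 to 6.26 in KO, and endothelial markers 6.57 to 6.68 and 6.59 to 6.71.

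Among all genes, those with the profile most like Lifr over the 9 arrays were Fat4, an atypical cadherin (Pearson r = 0.98), B3gat1, which helps to make the HNK-1 carbohydrate (0.98), Has2, a hyaluronan synthase (0.97), Ptx3, a secreted pentraxin (0.96), and Grip1, a scaffold protein that binds glutamate receptors (0.96). They are the 5 highest of 19937 genes and are a description, since the 9 points fall into genotypes that share the high KO level. After each genotype's mean was subtracted, r with Lifr was 0.89 for Fat4, 0.86 for B3gat1, 0.81 for Has2, 0.75 for Ptx3 and 0.95 for Grip1. The 5 genes were picked by r over these same arrays, so a high r within genotypes is partly built in and is no separate evidence. In all 5, as in Lifr, KO replicate 2 was the lowest KO array.

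The opposite profile was shown by Bmp6, a bone morphogenetic protein (r = -0.96), Cd82, a tetraspanin (-0.95), Zfp764, a zinc finger gene (-0.95), Ankrd6, which takes part in Wnt and planar polarity signalling (-0.94), and Pdk4, a kinase that restrains pyruvate dehydrogenase (-0.94). Within genotypes, where the same limit holds, r with Lifr was -0.93 for Bmp6 and -0.29 for Pdk4. Fat4 differed between KO and WT by 0.93 (SE 0.15), close to the size seen for Lifr, and Bmp6 by -0.31 (SE 0.09).

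**Figure D4:**
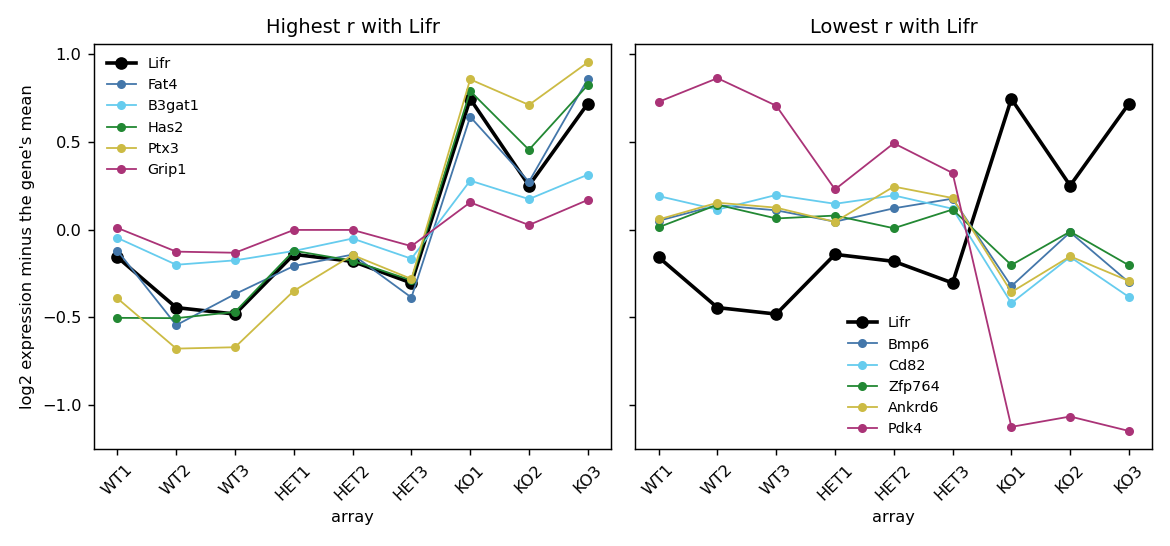
Log2 expression minus each gene's mean over the 9 arrays (vertical axis), by array, for Lifr (black) and the 5 genes with the highest (left) and lowest (right) Pearson r with it. KO replicate 2 lies below the other KO arrays in Lifr and in Fat4, B3gat1, Has2, Ptx3 and Grip1.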

How the data were processed

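Ventricular zone RNA of 9 newborn mouse samples was measured, 1 array each. The table that the authors deposited holds log2 values of 28940 probe sets; RMA, affy and limma stand in the submitters' processing notes, with no version. RMA, as a method, subtracts background, equalises arrays and combines the probes of a set. The array table names no genome build. Detection calls were not used, and the number of arrays limits the precision.

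Names came from the array's platform annotation (21789 with 1 symbol, 1621 with several, 5530 without a listed gene), and RefSeq (GRCm38.p6) required 0 changes of symbol. The probe set with the highest mean was taken for each gene, which gave 19938 genes. Groups came from the sample titles. A linear model with a mean per genotype was fitted to all 9 arrays with no further normalization or filter (limma 3.58.1 in R 4.3.3, two-sided moderated test), and was checked on simulated data with known changes. Benjamini-Hochberg adjustment ran over the whole table, with calls under 0.05; 95% intervals use the moderated SE. Correlations with Lifr carry no p.

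The members and lists were chosen with earlier results of these data known. The text names all members, the 2 genes of each pathway list that ranked first by p between KO and WT, any called one, and the 5 genes with the highest and the lowest r with Lifr, passing over predicted and clone genes. Marker lists of radial glia, astrocytes, neurons, ependymal cells, choroid plexus, oligodendrocyte lineage, microglia, endothelial cells with pericytes, meninges and red blood cells were summarised by counts and mean log2 levels. Promoter windows (250 bases before to 50 after a start) came from RefSeq and were searched with Python 3.11.15. Alternatives were a replicate block, only the arrays compared, array weights, trend and robust settings, median centring, quantile normalization, averaged probe sets, a filter that dropped the dimmest 1 in 3 genes, a threshold of 0.10, and arrays left out.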

Additional observations from a re-analysis of the deposited data

How the results depend on the processing

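In KO against WT, 1 member was called, and 0 with only the 2 genotypes compared; leaving out 1 array gave 0 to 1. In KO against HET, 0 were called, and 1, Lifr, with array weights, quantile normalization, an adjusted p under 0.10, or HET replicate 1 and KO replicate 2 left out together (log2 difference 0.97); leaving out 1 array gave 0 to 1. In HET against WT, and among other pathway genes in KO against WT, 0 were called in each of the 19 settings. Over all genes, calls in KO against WT ranged from 23 without WT replicate 1 to 151 with array weights, and in KO against HET from 8 with only those genotypes in the fit to 75 without HET replicate 1.

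The labels state no pairing by replicate number, and correlations among so few arrays cannot settle whether there was one. Deviations of same-numbered arrays of different genotypes correlated at -0.34 to 0.06 over all genes, and 0 of 9 pairs exceeded 0.1. Among differently numbered arrays, HET replicate 1 and KO replicate 2 correlated at 0.31. With the replicate block, 1 member was called in KO against WT, 0 in HET against WT and 0 in KO against HET, and the calls over all genes went from 90 to 72 in the first and from 41 to 19 in the last.

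Small differences changed sign in some settings. In KO against WT, leaving out 1 array gave -0.14 to 0.057 for Socs3, -0.080 to 0.0021 for Ctf1 and -0.019 to 0.059 for Jak1, which lay at -0.017 with quantile normalization. In HET against WT, leaving out 1 array gave -0.19 to 0.026 for Ctf1, -0.19 to 0.045 for Il6st and -0.19 to 0.0048 for Socs3. In KO against HET it gave -0.085 to 0.082 for Lif, -0.065 to 0.15 for Ctf1, -0.0077 to 0.27 for Cntfr and -0.019 to 0.0900 for Socs3. Lif lay at -0.067 with array weights, -0.0038 with quantile normalization and -0.040 without HET replicate 1 and KO replicate 2, where Osmr lay at 0.0066 and Socs3 at -0.0082. The cause was not tested. No background level was measured here.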

Other observations

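Lifr correlated with Stat3 at Pearson r = 0.46 and with Il6st at -0.63 over the 9 arrays. After each genotype's mean was subtracted, Lifr and Stat3 correlated at Pearson r = -0.75 (Spearman rho = -0.67) over 9 arrays, and at -0.31 (-0.33) without KO replicate 2. KO replicate 2 was the array with the lowest Lifr and the highest Stat3, Socs3 and Lif of its genotype, and it received the lowest array weight, 0.364. For Il6st, which lay lower in KO while Lifr lay higher, the correlation within genotypes was 0.44 (rho = 0.67), and 0.50 (0.69) without that array. For Lif (-0.46 over the arrays, -0.72 within genotypes), Socs3 (-0.31 and -0.72) and Ctf1 (-0.12 and -0.16) the sign was the same both ways. Without KO replicate 2 the correlation within genotypes was -0.41 for Lif, -0.62 (rho = -0.23) for Socs3 and 0.15 for Ctf1, whose sign changed. These are descriptions over few arrays, chosen after the values were seen.

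Many genes held exactly the same deposited value on more than 1 array: 12543 of 19938 genes (62.9%), and 2 of the 9 members, Lif and Socs3. Ties were counted to the last deposited digit.

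Neuron markers had mean log2 levels of 9.64 to 9.66 in WT, 9.63 to 9.97 in HET and 9.73 to 9.91 in KO. Choroid plexus markers had 5.66 to 5.78, 5.58 to 6.10 and 5.59 to 5.79. The HET high came with Ttr of that list, which read 8.16 in HET replicate 2 and no more than 6.45 in any other array. HET replicate 2 was also the highest array for Jak1, and a link between the 2 was not tested. The oligodendrocyte lineage had 5.92 to 6.03, 6.05 to 6.15 and 6.01 to 6.03, and red blood cells 5.34 to 5.37, 5.11 to 5.27 and 5.20 to 5.36. Meningeal and fibroblast genes had 5.61 to 5.74 in WT, 5.41 to 5.71 in HET and 5.22 to 5.48 in KO. Within that list the proteoglycan gene Ogn fell between WT and KO (log2 difference -1.37, adjusted p = 0.012 by limma). The others, none of them called, differed far less: Col1a1 by -0.09, Col1a2 by -0.15, Lum by -0.18, Col3a1 by -0.07 and Dcn by 0.05.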
